A study of Homo sapiens with 4 samples.

Results

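PHF19, CBX2 and RNF2 are the genes of the Polycomb repressive complexes PRC2 and canonical PRC1 that have a row in a deposited table of gene expression in AMO1 cells. They were chosen by gene name and make up 3 of its 1232 genes. AMO1 is an established human line of multiple myeloma, a cancer of plasma cells. All cells had been transduced with a lentiviral PCDH vector. The control group (EV, 2 libraries) carried it empty, and the other group (PHF19_OE, 2 libraries) overexpressed PHF19. The labels give no promoter of the vector, do not say which PHF19 isoform it carried, and do not say whether the cells were a pool or a clone, nor that replicates came from separate cultures, so each SD below (n = 2) covers a spread that may be technical.

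Polycomb complexes keep genes silent by marking chromatin. PRC2 methylates lysine 27 of histone H3, and accessory proteins such as PHF19, one of the Polycomb-like proteins, help to bring it to its sites: PHF19 reads methylated lysine 36 of histone H3 through its Tudor domain. PRC1 places ubiquitin on histone H2A. RNF2, also called RING1B, is one of its alternative catalytic E3 ligases, and CBX2 is one of the alternative chromobox subunits, which bind the PRC2 mark and compact chromatin. High PHF19 expression is known as a marker of aggressive myeloma.

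Polycomb-like proteins bind CpG-rich DNA, and the start sites of PHF19 and RNF2 lie in such DNA. Binding at these sites was not measured here, and its part in the levels below was not tested. The sequences before a start of each gene are shown because both genes gave more reads in the PHF19_OE libraries, and because a vector need not carry the native start region. RefSeq's table on GRCh38.p14 held 3 such windows for 2 of the 3 genes. Each line gives 250 bases, 5′ to 3′ on the strand of the gene, up to the base before the start. PHF19 lies at chr9:120877189-120877438 (minus strand) and RNF2 at chr1:185045308-185045557 (plus strand). Capitals mark, on either strand, TTTCCCGC (bound by E2F factors), AANATGGC (bound by YY1) and GGGCGG (bound by SP and KLF factors); neighbouring GGGCGG matches may share a base.

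PHF19: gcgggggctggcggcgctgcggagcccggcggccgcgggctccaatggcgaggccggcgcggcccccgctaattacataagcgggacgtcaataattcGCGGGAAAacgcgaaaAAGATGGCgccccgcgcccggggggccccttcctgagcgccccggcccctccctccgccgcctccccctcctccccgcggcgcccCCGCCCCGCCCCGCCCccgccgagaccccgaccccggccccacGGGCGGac
RNF2: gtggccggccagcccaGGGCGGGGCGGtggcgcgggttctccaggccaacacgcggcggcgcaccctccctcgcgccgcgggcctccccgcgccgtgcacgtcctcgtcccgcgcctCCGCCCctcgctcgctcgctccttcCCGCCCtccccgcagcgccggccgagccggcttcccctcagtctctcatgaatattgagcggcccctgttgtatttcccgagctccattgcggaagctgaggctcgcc

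The PHF19 window held 39 CpG and the RNF2 window 34, against a median of 11 over 35116 windows of the same length. As many CpG or fewer were found in 97.8% and 94.2% of all windows. Both windows held GGGCGG 4 times, a motif present in 42.6% of all windows. The PHF19 window also held TTTCCCGC once (1.39% of windows) and AANATGGC once (3.86%), neither of which was in the RNF2 window. TTTGGCGC, another form of the E2F motif (0.55% of windows), was in neither, and CCAAT (NF-Y; 32.0%) was in the PHF19 window. A further PHF19 window, at chr9:120868912-120869161 before a start inside the gene, held 21 CpG and GGGCGG 6 times. Annotations place these starts differently: the deposited start of RNF2 lies inside its window, and that of PHF19 further upstream. The motifs were picked after these sequences had been read, and a match is a description, not a binding site.

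The library totals recovered from the deposited counts, FPKM and gene lengths ran from 23835805 to 35258920. The sources used here do not say which reads these totals count. The table lists genes with an unadjusted p-value under 0.05 in the authors' test, of 16881 that were adjusted together, so that genes outside it were not analysed here. The authors' deposited table calls 1.74% of those 16881 genes at an adjusted p of 0.05, 0.663% higher and 1.07% lower in PHF19_OE cells. EV replicate 1 stood apart from EV replicate 2: 500 listed genes were over 2-fold higher in it and 167 over 2-fold lower, on normalized counts plus 1. The plasma cell antigen CD38 was the one plasma cell marker of 12 with a row and was lower in PHF19_OE cells (901 and 660 against 3228 and 2138 normalized counts). The T cell genes CD3E and TRAC (2 of 10 T and NK markers) summed to 85.5 and 40.1 normalized counts in EV and to 2.40 and 5.12 in PHF19_OE, where CD3E was at 0 in replicate 1. The B cell receptor genes CD79A and CD79B (2 of 7 B cell markers) summed to 498 and 282 in EV and to 1126 and 1296 in PHF19_OE, but moved in opposite directions: CD79A fell from 211 and 65.5 to 1.20 and 4.09, and CD79B rose from 287 and 216 to 1125 and 1291. The myeloid marker ITGAM and the globin HBB (2 of 10 myeloid and erythroid markers) summed to 153 and 40.1 in EV and to 233 and 180 in PHF19_OE, with ITGAM at 0 in both PHF19_OE libraries. The epithelial marker CDH1 (1 of 8 stromal and epithelial markers) stood at 99.0 and 9.78 in EV and at 1.20 and 0 in PHF19_OE. For comparison, 7.16% of the 16881 adjusted genes had an unadjusted p-value under 0.05. In the authors' deposited table CD3E (adjusted p = 0.194) and TRAC (0.429) did not pass 0.05, whereas CD38, CD79A, CD79B, ITGAM, HBB and CDH1 did. The part of these markers in the results below was not tested, and in bulk samples fewer cells of a type and less RNA per cell cannot be told apart.

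All 3 Polycomb genes were higher in both PHF19_OE libraries than in both EV libraries, and none reached an adjusted p of 0.05 in the authors' deposited table. Groups separated in this direction are common in a table selected on the same comparison: 36.2% of the listed genes showed it. Of the 448 listed genes that were higher in PHF19_OE cells, 446 showed it, so that the separation sets the 3 genes apart from hardly any of those. In proportion CBX2 differed most and RNF2 least, whereas in normalized counts PHF19 differed most and CBX2 least.

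PHF19 (ENSG00000119403, chromosome 9, 120855652 to 120894896, minus strand, hg38) was the overexpressed gene, so that its level checks the labels. Its raw counts were 2326 and 4608 in EV replicates 1 and 2 and 8047 and 8577 in PHF19_OE replicates 1 and 2. The corresponding normalized counts, which are the counts divided by the authors' factor for each library, were 1842, 4506, 9670 and 8777. The groups did not overlap. As a ratio, the gap between the EV libraries was wider than that from the higher EV to the lower PHF19_OE library. As a difference in normalized counts it was narrower. EV replicate 2 was 2.45-fold above EV replicate 1 (95% counting interval 2.33 to 2.57), and PHF19_OE replicate 2 was 1.95-fold above EV replicate 2. The PHF19_OE libraries differed by 1.10-fold (1.07 to 1.14). Both intervals leave out 1, so each pair differed by more than counting error, which is all that the intervals cover.

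The mean PHF19 level was 9223 ± 631 normalized counts in PHF19_OE and 3174 ± 1883 in EV cells (SD, n = 2 each), a 2.91-fold difference. Against EV replicate 1 alone the difference was 5.01-fold, and against EV replicate 2 alone 2.05-fold. In the authors' deposited table the log2 fold change was 1.54 with a p-value of 0.00185 and an adjusted p of 0.0897. DESeq2, refitted on the listed genes with the authors' size factors, gave 1.54 with a standard error of 0.67 and a 95% interval from 0.23 to 2.84. EdgeR's quasi-likelihood test passed 0.05 only when either EV library was left out (adjusted p = 0.0238 without EV replicate 1 and 7.21e-09 without EV replicate 2). Each of those fits takes its spread from the PHF19_OE pair and assumes that the lone EV library varies like it. With all 4 libraries, the authors' size factors and no replicate block, the adjusted p by edgeR was 1. The gene count does not separate reads of the vector from those of the native gene.

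CBX2 (ENSG00000173894, chromosome 17, 79778132 to 79787983, plus strand) was the scarcest of the 3. Its raw counts were 21 and 25 in the EV libraries and 91 and 89 in the PHF19_OE libraries. The normalized counts were 16.6 and 24.4 in EV and 109 and 91.1 in PHF19_OE. The lower PHF19_OE library was 3.73-fold above the higher EV library, the widest such gap among the 3 genes. EV replicate 2 was 1.47-fold above EV replicate 1 with a counting interval of 0.79 to 2.76, so that no difference between these libraries was detectable at this depth.

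The CBX2 mean was 100.2 ± 12.9 normalized counts in PHF19_OE and 20.5 ± 5.52 in EV cells (SD, n = 2 each), 4.88-fold higher. The authors' deposited table gives a log2 fold change of 2.29, a p-value of 0.00244 and an adjusted p of 0.111. With DESeq2 the log2 fold change was 2.29 with a standard error of 0.99, and its 95% interval ran from 0.34 to 4.24. EdgeR's test gave an adjusted p of 0.0306 without EV replicate 2 and 0.109 without EV replicate 1, so that the call turned on which EV library was kept. Scaled to the library total (RPM), CBX2 stood at 0.596 RPM (95% Clopper-Pearson interval 0.369 to 0.910) in EV replicate 1 and 0.849 RPM (0.549 to 1.25) in EV replicate 2. The PHF19_OE libraries stood at 3.82 RPM (3.07 to 4.69) and 3.16 RPM (2.54 to 3.89). The intervals of the groups did not overlap, but they hold counting error only and no spread between cultures.

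RNF2 (ENSG00000121481, chromosome 1, 185045364 to 185102608, plus strand) showed the smallest fold difference and, as a ratio, the closest EV libraries. Its raw counts were 529 and 444 in EV and 610 and 791 in PHF19_OE. The normalized counts were 419 and 434 in EV and 733 and 809 in PHF19_OE. The EV libraries differed by 1.04-fold with a counting interval of 0.91 to 1.18, and the lower PHF19_OE library was 1.69-fold above the higher EV library. The raw counts of EV replicate 1 and PHF19_OE replicate 1 were close, and the gap between the groups appears once library depth is taken into account. On the RPM scale RNF2 stood at 15.0 and 15.1 in EV and at 25.6 and 28.1 in PHF19_OE.

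The RNF2 mean was 771 ± 54.1 normalized counts in PHF19_OE and 427 ± 10.7 in EV cells (SD, n = 2 each), 1.81-fold higher. In the authors' deposited table the log2 fold change was 0.85, the p-value 0.0349 and the adjusted p 0.587. DESeq2 gave 0.85 with a standard error of 0.61 and a 95% interval from -0.34 to 2.05, which holds 0. DESeq2 and edgeR share the estimate of spread across genes, so that the narrow spread of RNF2 between its own libraries counts only in part. Of the 1232 listed genes, 1129 had a wider gap between the EV libraries than RNF2, 877 a wider one than CBX2 and 552 a wider one than PHF19.

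**Figure D1:**
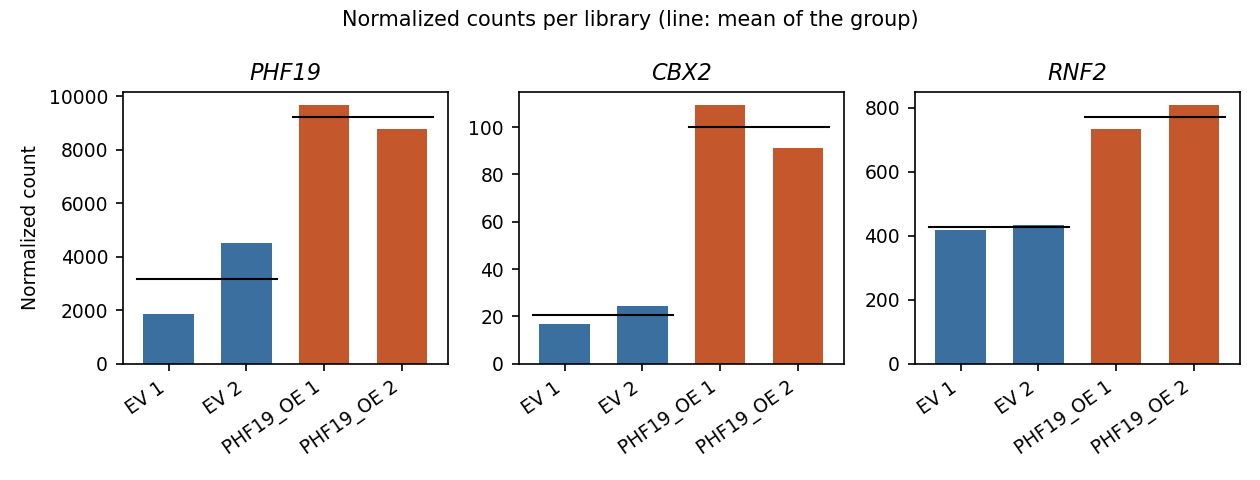
Normalized counts (y axis, linear, a separate scale for each gene) of PHF19, CBX2 and RNF2 in EV replicates 1 and 2 (blue) and PHF19_OE replicates 1 and 2 (orange), with a line at each group mean. For each gene both orange bars stand above both blue bars, and the blue bars of PHF19 differ by 2.45-fold while those of RNF2 are nearly level.

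The 3 genes thus took different places between the spread of the EV libraries and the difference of the groups. On log2 of the normalized count plus 1, EV replicate 2 exceeded EV replicate 1 by 1.29 for PHF19, 0.53 for CBX2 and 0.05 for RNF2. The differences between group means on that scale were 1.68, 2.25 and 0.85. PHF19 was the one of the 3 whose EV libraries lay over 2-fold apart, as did those of 128 of the 448 listed genes that were higher in PHF19_OE cells and, like PHF19, higher in EV replicate 2. The median deposited log2 fold change of those 448 genes was 2.13, above that of PHF19 and RNF2 and below that of CBX2; selection by p-value favours large values among genes with few reads.

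**Figure D2:**
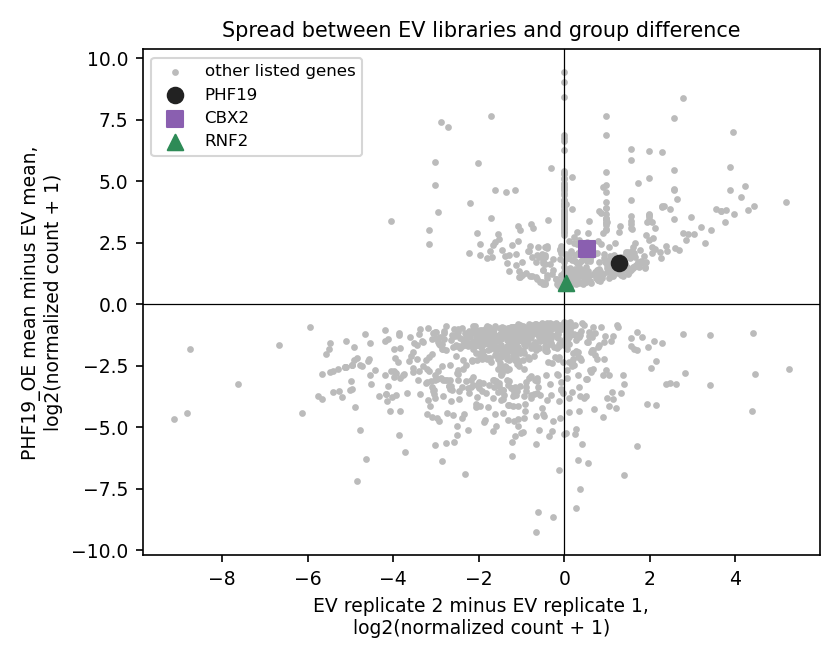
Each point is a listed gene, placed by the gap between the EV libraries (x axis) and by the difference of the group means (y axis), both on log2(normalized count + 1). RNF2 sits at the vertical zero line (0.05), CBX2 at 0.53 and PHF19 at 1.29, all above the horizontal zero line; the empty band around it follows from the selection of the listed genes.

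Levels of different genes were compared per length, as FPKM (reads scaled by gene length and by the library total), with the deposited gene lengths of 6733 bases for PHF19, 5687 for CBX2 and 4073 for RNF2. PHF19 had the highest level in every library, RNF2 the middle one and CBX2 the lowest. PHF19 stood at 9.80 and 23.2 FPKM in EV and at 50.1 and 45.2 FPKM in PHF19_OE. RNF2 stood at 3.68 and 3.70 FPKM in EV and at 6.28 and 6.90 FPKM in PHF19_OE. CBX2 stood at 0.105 and 0.149 FPKM in EV and at 0.671 and 0.556 FPKM in PHF19_OE. No neighbours in this order overlapped over the 4 libraries: the lowest PHF19 value lay above the highest RNF2 value, and the lowest RNF2 value above the highest CBX2 value. If the vector held less than the full gene length, FPKM over that length gives too low a level for its transcript.

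By level, PHF19 ranked 234 and 74 from the top of the 1232 listed genes in the EV libraries and 32 and 28 in the PHF19_OE libraries. RNF2 ranked 427 and 310 in EV and 218 and 202 in PHF19_OE, and CBX2 ranked 1034 and 916 in EV and 670 and 675 in PHF19_OE. Each of the 3 thus ranked higher among these selected genes in both PHF19_OE libraries than in either EV library. Most of the selected genes were lower in PHF19_OE cells (448 of 1232 were higher), so that a gene of unchanged level would also tend to rise in rank.

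The transcript of the PRC2 accessory protein exceeded that of the PRC1 ligase in each library. The ratio of PHF19 to RNF2 FPKM was 2.66 and 6.28 in EV and 7.98 and 6.56 in PHF19_OE. The group means were 4.47 ± 2.56 in EV and 7.27 ± 1.0 in PHF19_OE (SD, n = 2 each), with EV replicate 1 far below the other libraries and PHF19_OE replicate 2 close to EV replicate 2. The ratio of PHF19 to CBX2 FPKM was 93.6 and 155.7 in EV and 74.7 and 81.4 in PHF19_OE, lower in both PHF19_OE libraries. Within PRC1, RNF2 exceeded CBX2 by 35.2- and 24.8-fold in EV and by 9.36- and 12.4-fold in PHF19_OE, with no overlap of these values. The EV values of both ratios with CBX2 rest on 21 and 25 CBX2 reads. The 95% counting intervals of these reads were 13.0 to 32.1 and 16.2 to 36.9, and no interval was computed for a ratio. With 1 added to each FPKM, which exceeds the CBX2 level itself, both ratios with CBX2 turned their order between the groups. With 2 libraries a group, an exact permutation test of such a ratio cannot give a p below 0.33, and no test was made.

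**Figure D3:**
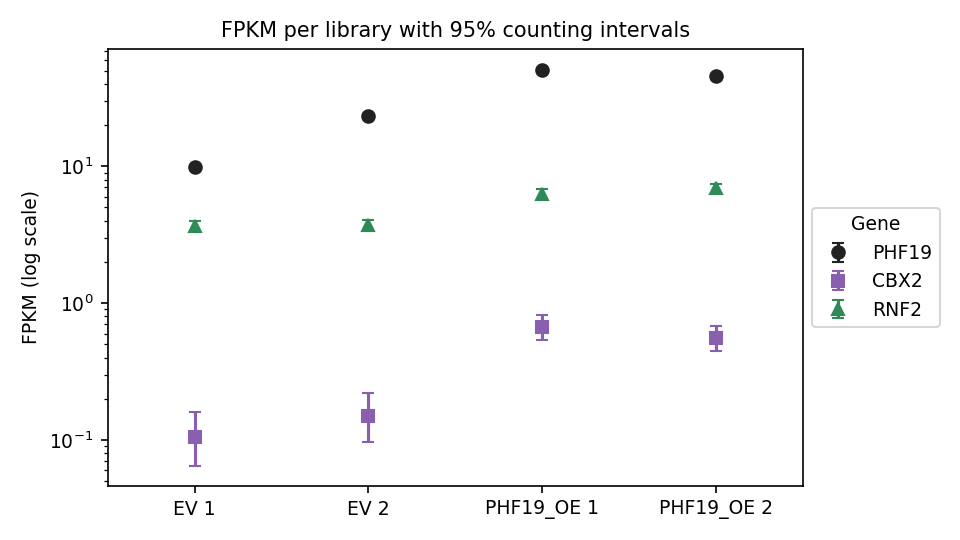
FPKM (y axis, log scale) of PHF19 (circles), CBX2 (squares) and RNF2 (triangles) in the 4 libraries, with 95% Poisson counting intervals that cover counting error only. The order PHF19, RNF2, CBX2 holds in every library, and the distance between the triangles and the squares is 35.2- and 24.8-fold in EV and 9.36- and 12.4-fold in PHF19_OE.

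Of 67 names on 6 lists of Polycomb and histone genes, 4 had a row (5.97%, beside 7.16% of the 16881 adjusted genes with a p-value under 0.05). The lists covered PRC2 (1 of 14, PHF19), canonical PRC1 (2 of 15, CBX2 and RNF2), variant PRC1 (1 of 17), erasers of the PRC2 and PRC1 marks (0 of 8), writers and erasers of lysine 36 methylation (0 of 10) and the HP1 chromodomain paralogs of CBX2 (0 of 3). The fourth gene, AUTS2, a subunit of a variant PRC1 that lacks CBX proteins, was the only one to pass. It fell in PHF19_OE cells, where its normalized counts were 109 and 208, against 1042 and 1492 in EV. The groups were far apart, with means of 159 ± 69.6 and 1267 ± 319 normalized counts (SD, n = 2 each), 7.99-fold lower. For AUTS2 the authors' deposited table gives -3.00 as log2 fold change and 5.39e-07 as adjusted p. DESeq2 with the authors' size factors also called it (adjusted p = 0.00235), as did edgeR's test with a replicate block (0.00343), whereas edgeR's test on all 4 libraries with the authors' size factors and no block did not (0.662), nor did DESeq2 with size factors from the listed genes (0.256). By edgeR it passed without either EV library (1.97e-16 without EV replicate 1 and 1.29e-09 without EV replicate 2) and missed without either PHF19_OE library (1 each). By list, 0 of 14 PRC2 names, 0 of 15 canonical PRC1 names and 1 of 17 variant PRC1 names passed, the last being lower. Of the 16881 adjusted genes, 1.74% passed and 1.07% passed and were lower. It is not known whether every name without a row was among the adjusted genes. Of the 1232 listed genes 293 passed, so that a share over genes with a row is raised by the selection.

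The listed coding genes most like each of the 3 in pattern were taken from 807 with a mean of at least 50 normalized counts, by the root mean square difference in log2 of the normalized count plus 1 over the 4 libraries, each gene centred on its own mean. For PHF19 these were ACSS1 (0.12), a mitochondrial acetyl-CoA synthetase, the collagen gene COL24A1 (0.13) and the bicarbonate transporter gene SLC4A7 (0.13). ACSS1 had 3760 and 9059 normalized counts in EV and 16931 and 19478 in PHF19_OE. It shares the low EV replicate 1 and the high PHF19_OE pair of PHF19 because it was picked for that shape. For CBX2 they were CENPV (0.09), BCAR1 (0.13), which encodes an adhesion adaptor, and GFOD1 (0.13). CENPV had 18.2 and 26.4 normalized counts in EV and 102 and 92.1 in PHF19_OE. For RNF2 they were FAM126B (0.04), the zinc finger gene ZNF521 (0.04) and ST7 (0.05). FAM126B had 1772 and 1713 normalized counts in EV and 3017 and 3351 in PHF19_OE. Of these 9 genes, GFOD1 alone passed in the authors' deposited table (adjusted p = 0.0187), and its call changed with the fit. GFOD1 did not pass by edgeR's test on all 4 libraries, with or without a replicate block (adjusted p = 1 each), or by DESeq2 with the authors' size factors (0.448). It passed by DESeq2 with size factors from the listed genes (0.0314) and by edgeR without EV replicate 1 (0.0179) or without EV replicate 2 (0.00689). Likeness over 4 libraries in 2 groups is a description of shape and carries no test.

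The direction of each gene was the same under every scaling, and only factors from the listed genes could have turned it. TMM factors from the listed genes raised the log2 fold change to 1.95 for PHF19, 2.76 for CBX2 and 1.39 for RNF2, and DESeq2's size factors from the listed genes to 2.21, 3.08 and 1.71. These factors come from selected genes, most of which were lower in PHF19_OE cells: the median fitted log2 fold change of all listed genes was -1.33 by DESeq2 with the authors' size factors and -0.31 with its own. None of the 3 genes passed 0.05 under either.

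**Figure D4:**
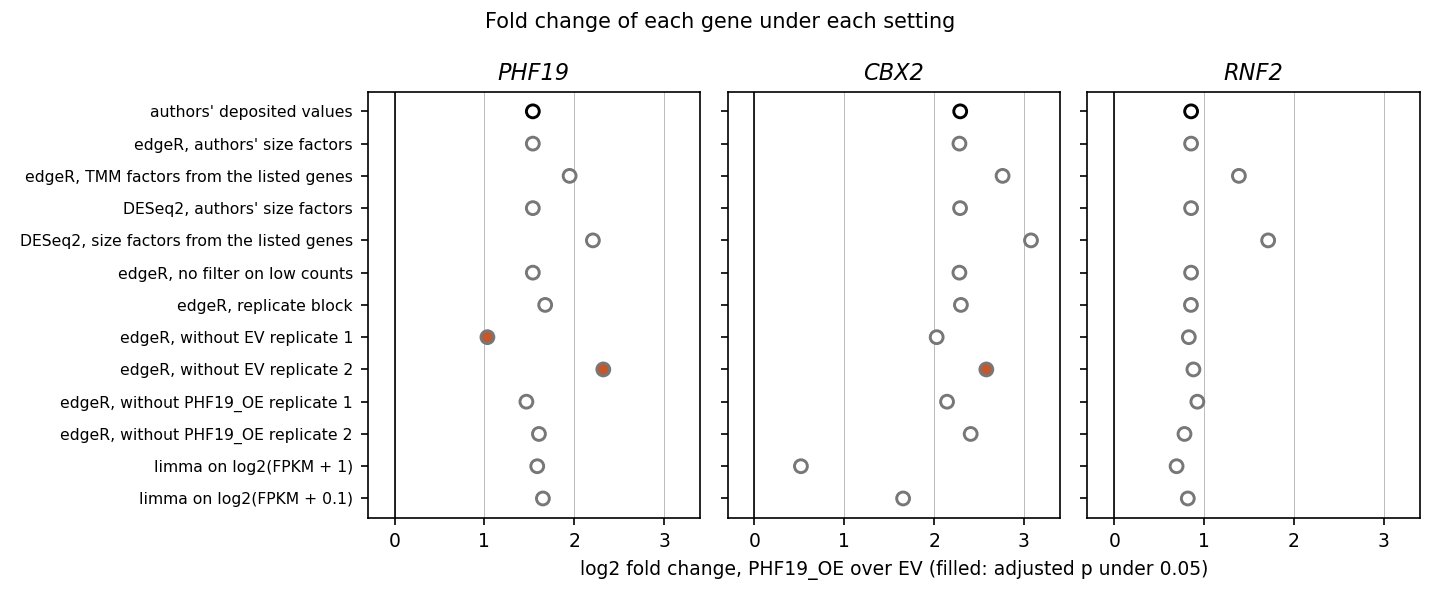
Log2 fold change of PHF19_OE over EV (x axis) for each gene under the authors' deposited values (black outline) and each alternative (grey outlines); filled points have an adjusted p under 0.05. All points lie above 0, and the filled ones are PHF19 without either EV library and CBX2 without EV replicate 2.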

How the data were processed

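RNA of AMO1 cells was made into libraries with a SMARTER mRNA-Seq kit, per the labels' protocols, and reads were placed on hg38, per the submitters' processing notes. The sources used here do not name the aligner, the counter, the strand setting or the statistical test. Per the file headers, the authors deposited for each gene raw counts, FPKM, p-values before and after adjustment and a log2 fold change. The deposited normalized values are a signal scale, the count divided by a factor of 1.26, 1.02, 0.832 and 0.977 for EV replicates 1 and 2 and PHF19_OE replicates 1 and 2. Library totals were recovered from counts, FPKM and gene lengths. The adjusted p-values equal a Benjamini-Hochberg adjustment over 16881 genes in 1208 of 1232 rows (relative tolerance 1e-06), and the other 24 are 1.

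Because the table holds only genes with a p-value up to 0.0499, the authors' values are the main result. Refits on the listed genes used edgeR 4.0.16 (quasi-likelihood test, filterByExpr), DESeq2 1.42.0 and limma 3.58.1 in R 4.3.3. Their p-values were adjusted over 16881 genes, with every unlisted gene taken to have a larger p-value than the listed genes. Where that does not hold, the adjusted p-values of the refits are too high. The code was run on simulated counts with the same spread set for every gene and library. That run does not show how the fits behave at the spread of these data. The refits estimate the spread from selected genes. Counting intervals are exact (95%) and cover counting error only, since reads without molecular identifiers are not independent molecules. The genes, lists and tests were chosen with earlier results of these data known. Named genes are the 3 Polycomb genes, members of the lists with a row, the 3 coding genes nearest in pattern to each, and listed genes within 500 kb.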

Additional observations from a re-analysis of the deposited data

How the results depend on the processing

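Under 12 alternatives each, PHF19, CBX2 and RNF2 were higher in PHF19_OE cells in all 36 fits, with log2 fold changes of 1.03 to 2.32, 0.52 to 3.08 and 0.69 to 1.71. Fits with the authors' size factors or on FPKM could not turn a direction. On both scales each gene had both PHF19_OE libraries above both EV libraries. Only factors from the listed genes could have turned it, so that the count of fits is no test of the direction. The lowest CBX2 value came from limma on log2(FPKM + 1), where the pseudocount exceeds the gene's level; with 0.1 added it was 1.65. In edgeR fits that leave out 1 library, the log2 fold change ran from 1.03 to 2.32 for PHF19 (past 0.05 without either EV library), from 2.03 to 2.58 for CBX2 (past 0.05 without EV replicate 2) and from 0.78 to 0.92 for RNF2. Refit counts cover listed genes only, with unlisted genes taken to have larger p-values, so they are not like for like with the authors' count. The number of genes at an adjusted p under 0.05 was 293 in the authors' deposited table. It was 0 by edgeR's test with the authors' size factors (522 at an unadjusted p under 0.05), 0 with TMM factors (499) and 0 without a filter on low counts (582), and 134 by DESeq2 with the authors' size factors and 161 with its own. Without 1 library, edgeR called 329 (EV replicate 1 left out), 842 (EV replicate 2), 11 (PHF19_OE replicate 1) and 10 (PHF19_OE replicate 2); the cause of these differences was not tested.

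The same alternatives, applied to the other named genes after the data had been seen, turned no direction in 244 fits; 90 ended a call and 7 made one.

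Replicates 1 and 2 of the groups share only a number: no label says that it marks a culture or a day. The deviations of same-numbered libraries from their group means correlated at 0.21 over the 1232 listed genes. With the replicate block, edgeR called 109 genes, and the log2 fold changes were 1.68 for PHF19 (adjusted p = 0.579), 2.30 for CBX2 and 0.85 for RNF2 (adjusted p = 1 each). AUTS2 passed with the block (adjusted p = 0.00343) and not without it (0.662).

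Adding 1 to each FPKM moved the ratio of PHF19 to CBX2 to 15.4 in EV and 30.2 in PHF19_OE, and that of CBX2 to RNF2 from 0.0344 to 0.24 in EV and from 0.0937 to 0.213 in PHF19_OE, which turns the order of the groups for both ratios. CBX2 lies under 1 FPKM in every library, so that the added value sets these ratios. CBX2, with 21 and 25 EV reads, is limited by depth.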

Other observations

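Each of the 3 genes had 1 other listed gene within 500 kb, and each of those was lower in PHF19_OE cells. Most listed genes were lower (36.4% of the 1232 were higher), so that this direction does not set the neighbours apart. TRAF1, an adaptor of tumour necrosis factor receptors, lies 7.5 kb upstream of PHF19 on the same strand (chromosome 9, 120902393 to 120929173, hg38). It had 509 and 182 normalized counts in EV and 63.7 and 82.9 in PHF19_OE, a fall of the means of 4.71-fold (2.48-fold without EV replicate 1), with an adjusted p of 0.0337 in the authors' deposited table. By edgeR's test on all 4 libraries with the authors' size factors its adjusted p was 1 without a replicate block and 0.943 with one, and by DESeq2 with the authors' size factors it was 0.404; edgeR's test passed without EV replicate 2 (1.86e-06) and not without EV replicate 1 (0.31). C1orf21 lies 416 kb from RNF2 (chromosome 1, 184387058 to 184629020) and had 7463 and 1687 normalized counts in EV and 751 and 737 in PHF19_OE. The fall was 6.15-fold (against EV replicate 2 alone 2.27-fold, against EV replicate 1 alone 10.0-fold), with an adjusted p of 0.00309 in the authors' deposited table, 1 by edgeR's test on all 4 libraries with the authors' size factors and no replicate block, 0.102 with one and 0.0875 by DESeq2 with the authors' size factors. Without EV replicate 1 it was 0.0101 by edgeR, and without EV replicate 2 it was 1.07e-23. TBC1D16, 144 kb from CBX2, had 43 counts in EV replicate 1 and 0 in the other libraries, and did not pass.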
